A study of Arabidopsis thaliana with 4 samples.

Results

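The root cap nuclei described here are 915 of 23532 nuclei of Arabidopsis thaliana root tips, chosen by their RNA: each held at least 1 count of at least 3 of 11 root cap marker genes, and these markers made up at least 0.1% of its RNA counts. Nuclei with RNA counts over 1000 and under 25000 were kept, out of 24474 barcodes, and the other 22617 kept nuclei are called nuclei outside the rule. Since marker RNA chose the nuclei, their marker levels and their RNA against that of nuclei outside the rule are descriptions and were not tested. Gene-start accessibility, which did not enter the choice, and the change under stress were tested.

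RNA and open chromatin were measured in the same nuclei with the 10x multiome assay, in which transposase-cut DNA and RNA of 1 nucleus carry linked barcodes. All 4 libraries were of Col-0, the wild-type accession, from 5-mm root tips. Control plants (2 libraries) grew on plain medium and osmotic stress plants (2 libraries) on medium with sorbitol, a sugar alcohol that lowers the water potential around the root. The study describes the libraries of a group as biological replicates, and the labels say nothing more of their origin. The p-values of stress against control measure the spread between libraries of a group. Those of the comparisons with nuclei outside the rule measure the spread of differences within libraries, since library is a term there. Where 1 library was left out of a stress test, 1 group held a single library.

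The root cap is the sheath of cells that covers the root tip. Its central part, the columella, holds starch-filled plastids that settle under gravity, and its flanks form the lateral root cap. New cells arise from stem cells inside the cap while the oldest cells at the surface die or detach, so the whole tissue turns over. The NAC transcription factors SMB, BRN1 and BRN2 promote maturation of cap cells, FEZ promotes the divisions that form them, and in Arabidopsis the wall enzymes CEL5 and RCPG act in the release of the outermost cells.

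NAC factors bind DNA sites with the core CACG or its reverse complement CGTG, so the 200 bases before the annotated start of 6 genes are shown to let the reader see where these letters stand beside genes that the values below turn on. CEL5 and AT5G10130 are rule markers, RCPG and SKS16 are genes higher in the root cap nuclei that the rule did not use, and AT5G05965 and MAKR1 had more accessible starts. The bases were read from the TAIR10.1 RefSeq genome, on the gene's own strand from 5′ to 3′, with the last base next to the start, and capitals mark the core on either strand. CEL5 lies on the plus strand (chr1:8095249-8095448) and the others on the minus strand: RCPG (chr1:24375896-24376095), SKS16 (chr2:10055428-10055627), AT5G10130 (chr5:3172702-3172901), AT5G05965 (chr5:1792635-1792834) and MAKR1 (chr5:9174599-9174798).
CEL5: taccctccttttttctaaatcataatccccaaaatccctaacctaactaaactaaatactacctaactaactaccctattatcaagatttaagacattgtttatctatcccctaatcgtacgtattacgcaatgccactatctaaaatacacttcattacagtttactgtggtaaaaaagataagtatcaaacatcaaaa
RCPG: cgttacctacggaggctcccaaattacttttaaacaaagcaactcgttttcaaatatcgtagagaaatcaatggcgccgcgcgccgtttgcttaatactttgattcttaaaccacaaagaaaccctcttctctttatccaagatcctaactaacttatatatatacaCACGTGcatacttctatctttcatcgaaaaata
SKS16: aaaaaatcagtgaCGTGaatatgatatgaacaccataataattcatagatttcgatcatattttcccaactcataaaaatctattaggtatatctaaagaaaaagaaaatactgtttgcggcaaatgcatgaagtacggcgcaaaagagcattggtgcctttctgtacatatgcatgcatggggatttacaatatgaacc
AT5G10130: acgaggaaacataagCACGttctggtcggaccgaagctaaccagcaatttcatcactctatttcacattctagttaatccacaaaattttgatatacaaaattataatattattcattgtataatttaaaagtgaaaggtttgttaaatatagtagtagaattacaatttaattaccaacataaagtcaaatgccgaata
AT5G05965: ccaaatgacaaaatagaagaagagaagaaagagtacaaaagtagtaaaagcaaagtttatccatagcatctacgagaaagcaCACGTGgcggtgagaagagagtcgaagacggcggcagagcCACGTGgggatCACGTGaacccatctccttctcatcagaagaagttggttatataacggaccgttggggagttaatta
MAKR1: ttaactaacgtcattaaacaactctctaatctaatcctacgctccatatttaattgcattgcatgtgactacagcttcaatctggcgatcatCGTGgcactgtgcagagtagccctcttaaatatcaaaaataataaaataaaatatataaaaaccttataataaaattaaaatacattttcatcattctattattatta

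The core occurred 0 times before CEL5, 2 times before RCPG, 6 times before AT5G05965 and 1 time each before SKS16, AT5G10130 and MAKR1. In RCPG and AT5G05965 each pair of matches overlapped within CACGTG, the G-box that other factor families also bind. A core of 4 bases is common: it stood in the same window of 12725 of 32546 genes (39.1%), beside 6 of the 11 markers (54.5%) and 42 of the 84 genes described below as higher in the root cap nuclei (50%).

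Depth differed between the libraries. The root cap nuclei summed to 837147, 753973, 1283803 and 1072427 RNA counts in control 1, control 2, stress 1 and stress 2, the order used throughout, with medians of 3195, 2555, 3131 and 3341 a nucleus against 3277.5 to 3890.5 outside the rule. Their median peak counts were 1847, 2412, 1653.5 and 1679, against 617, 3659.5, 3943 and 4120.5 outside, so control 1 stood apart in its chromatin data. Root cap members of different libraries shared 1 barcode sequence. Markers of other root cell types were common in both sets: 47.9%, 42.4%, 55.5% and 55.8% of the root cap nuclei held at least 3 markers of another class, as did 45.2%, 44.1%, 64.3% and 66.4% of the nuclei outside the rule. Their part in the results was not tested beyond the values without such nuclei given below.

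The share of root cap nuclei was 5.14% in control 1 (165 of 3213 nuclei, exact 95% interval 4.40% to 5.96%), 3.11% in control 2 (191 of 6133, 2.69% to 3.58%), 4.01% in stress 1 (308 of 7687, 3.58% to 4.47%) and 3.86% in stress 2 (251 of 6499, 3.41% to 4.36%). The intervals cover counting error only. Both stress libraries lay between the control libraries. The mean was 4.12% ± 1.43 (SD, n = 2) in control and 3.93% ± 0.102 (SD, n = 2) in stress, a difference of -0.19 percentage points (two-sided exact permutation test, p = 1, where 2 against 2 libraries allow no p under 0.333). The difference was -0.62 with at least 2 markers and -1.78 with the study's limits on peak counts (5.26% in control and 3.48% in stress), and it turned to 0.131 with at least 4 markers and to 0.82 without control 1. The groups overlapped under each of these marker and peak limits.

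**Figure D1:**
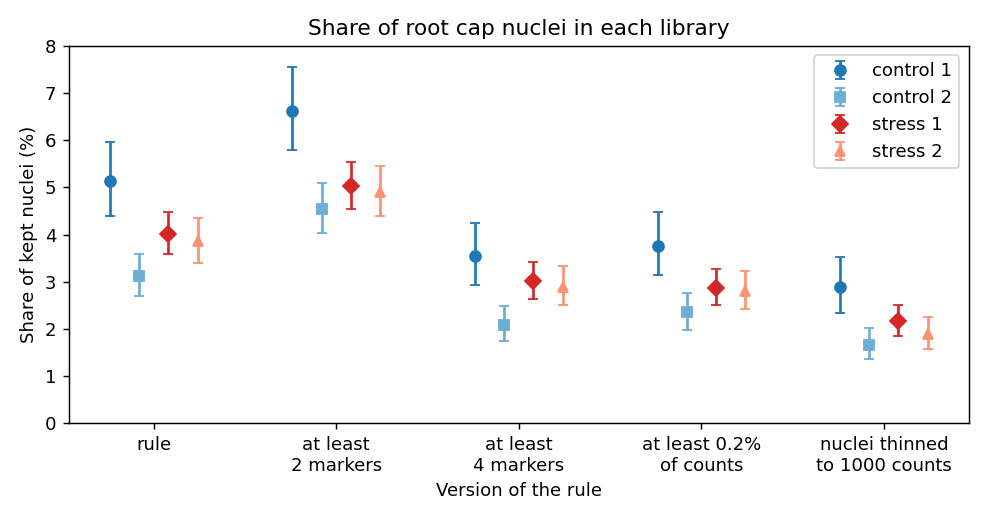
Share of kept nuclei (%) that met the root cap rule in each library, for the rule and 4 altered versions of it. Points are libraries and bars are exact 95% binomial intervals. Under the rule control 1 stands highest at 5.14% and control 2 lowest at 3.11%, with both stress libraries between them.

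Many nuclei stood near the limits of the rule. Exactly 3 markers were held by 51, 63, 77 and 63 nuclei, and 5 or more by 89, 76, 159 and 127. The marker share was under 0.2% in 44, 47, 88 and 69 of them, with medians of 0.501%, 0.339%, 0.373% and 0.344%. Just outside stood 65, 69, 171 and 129 nuclei with at least 3 markers but too low a share, and 48, 88, 78 and 68 nuclei with 2 markers at a sufficient share. Between 61.2% and 70.6% of the nuclei outside the rule in a library held no marker at all.

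All 11 markers were higher in the root cap nuclei in every library, which the rule required as a set. SMB (chr1:29940803-29943713) stood at 89.6, 66.3, 66.2 and 74.6 CPM (counts scaled to a total of 1000000 in each library sum) against 2.15, 2.16, 3.62 and 3.73 outside. BRN1 (chr1:12072611-12073965) stood at 102, 80.9, 114 and 113 CPM against 0.548 to 1.80, and BRN2 (chr4:6415120-6416961) at 63.3, 54.4, 56.9 and 52.2 CPM against 0.342 to 1.02. Stress and control values of SMB and BRN2 overlapped, and those of BRN1 were slightly higher in both stress libraries. SMB had at least 1 count in 32.1%, 19.4%, 21.8% and 24.7% of the root cap nuclei and in 0.853% to 1.46% of the nuclei outside.

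At these depths the 3 NAC genes were seldom seen together in 1 nucleus. Among the 915 nuclei, 418 held none of them, 361 held 1, 122 held 2 and 14 held all 3. BRN1 with BRN2 was found in 74 nuclei, SMB with BRN1 in 53 and SMB with BRN2 in 37. A count of at least 1 of the 3 was present in 61.2%, 44.5%, 55.8% and 55.4% of the root cap nuclei, against 1.30% to 2.51% of the nuclei outside the rule. The 418 nuclei with none met the rule through the other 8 markers.

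The other 8 markers encode mainly secreted and wall proteins. CEL5, a cellulase, stood at 357, 255, 219 and 229 CPM against 2.45 to 4.56 outside. AT5G10130, of the pollen Ole e 1 and extensin family, was the least restricted marker, at 1312, 792, 804 and 894 CPM against 75.1, 58.4, 40.4 and 38.2, with a count in 81.8%, 77%, 74.0% and 78.5% of root cap nuclei and still in 11.6% to 16.3% of the others. AT5G60530, a late embryogenesis abundant (LEA) related gene, stood at 2475, 761, 1073 and 1062 CPM against 13.8 to 23.9. Its neighbour AT5G60520, 762 bases away with no gene between, stood at 406, 219, 216 and 280 CPM against 5.96 to 9.88. Control 1 was highest for 10 of these 11 markers, all but BRN1.

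**Figure D2:**
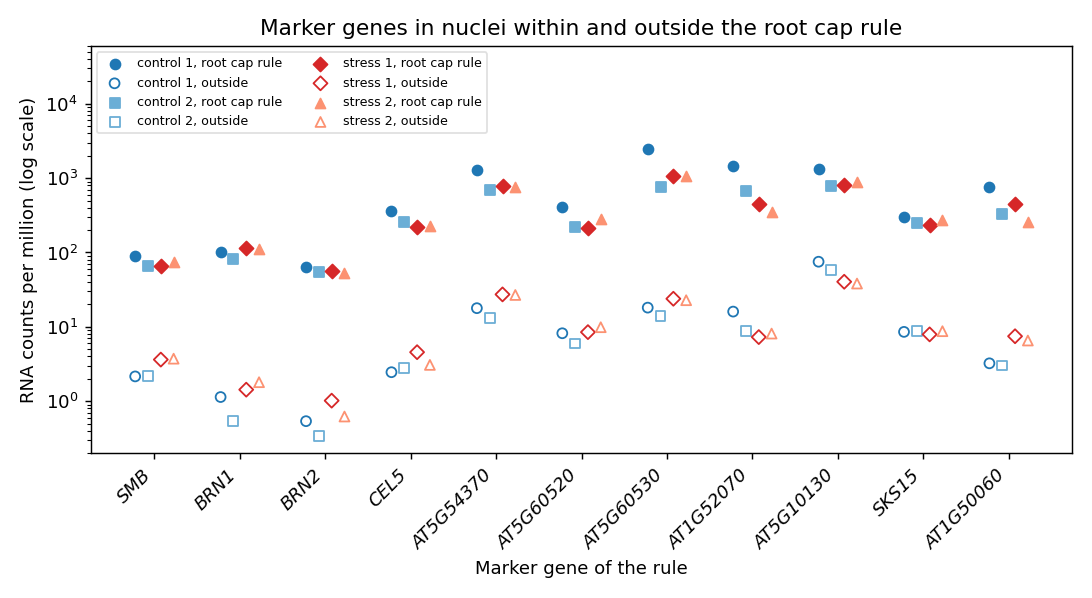
RNA CPM (log scale) of the 11 marker genes in each library, filled symbols for root cap nuclei and open symbols for nuclei outside the rule. The nuclei were chosen by these genes, so the gap is a description. AT5G10130 has the highest open symbols, at 38.2 to 75.1 CPM.

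Among markers, the lectin gene AT1G52070 differed most between groups, with 1460 and 666 CPM in control and 451 and 354 CPM in stress. The groups also did not overlap for CEL5, lower in stress, and BRN1, higher in stress, and they overlapped for the other 8 markers. With 2 libraries a group, genes without a change often show such an order. Its share over all genes was not counted, so no conclusion on a stress response was drawn from it. Because a nucleus had to hold marker RNA to be counted, no test of marker RNA is given.

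Genes that the rule did not use were described by a fixed size: at least 50 CPM in root cap nuclei of every library, and more than 2 times the level outside in each. Of 2955 genes with at least 50 CPM in every library, 84 met this. Over all 26331 genes with a count, 10.3% were higher in root cap nuclei in all 4 libraries and 20.9% were lower. The gene with the largest median ratio was SKS16 (chr2:10052365-10055427), a multicopper oxidase-like relative of the marker SKS15, at 115, 71.6, 111 and 143 CPM against 1.02 to 2.13. RTFL9, a small ROTUNDIFOLIA-like peptide, stood at 142, 80.9, 84.9 and 87.7 CPM against 0.993 to 2.00, and AT5G55110, of the Stig1 family of cysteine-rich secreted proteins, at 493, 149, 317 and 311 CPM against 2.26 to 5.79.

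Runs of related genes stood among these 15 leading genes. The mannose-binding lectins AT1G52050 and AT1G52060 lie beside the marker AT1G52070 on chromosome 1, with gaps of 1898 and 3986 bases and no gene between. AT1G52060 stood at 524, 224, 227 and 208 CPM against 3.49 to 6.34 and AT1G52050 at 357, 160.5, 222 and 173 CPM against 3.70 to 5.46. Since their sequences are related, reads shared between copies cannot be told apart here. The myrosinases TGG4 and TGG5, enzymes that split glucosinolates into defence compounds, stood at 199, 113, 140 and 261 CPM and at 147, 106, 123 and 238 CPM, against at most 14.7 and 13.8 outside. MLP-300B, a myrosinase-binding protein gene, stood at 266, 66.3, 70.1 and 103 CPM against 3.41 to 5.96. The LEA-like genes AT4G27400 (57.8 to 183 CPM) and AT3G19430 (62.5 to 93.2), the TatD-related deoxyribonuclease gene AT3G03500 (168 to 262), the fatty acid desaturase gene AT1G06090 (63.7 to 199), the peroxidase gene AT2G43480 (51.7 to 105), AT1G10530 (111 to 227) and AT3G61930 (74.6 to 115) completed the 15.

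Genes of developmental cell death, the programme by which old cap cells clear their contents, were higher in all 4 libraries in 6 of 8 cases. Of all genes with a count 10.3% were. The summed level of the 8 cell death genes was 269, 121, 181 and 245 CPM in root cap nuclei against 14.8, 19.5, 32.7 and 34.1 outside. SCPL48, a carboxypeptidase gene, stood at 129, 41.1, 91.1 and 93.2 CPM against 7.95, 14.3, 18.5 and 21.2. The ribonuclease gene RNS3 stood at 64.5, 22.5, 37.4 and 69.0 CPM against 1.71 to 4.58. The aspartic protease gene PASPA3 stood at 15.5, 7.96, 21.0 and 23.3 CPM against 0.821 to 2.28, and the metacaspase gene MC9 at 28.7, 21.2, 23.4 and 31.7 CPM against 0.582 to 3.13. Control 2 was lowest in SCPL48, RNS3, PASPA3 and MC9. The nuclease gene BFN1 (3.90 to 9.32 CPM) and EXI1 (3.90 to 18.6 CPM) were the others, while DMP4 and CEP1 had at most 9 counts in a library.

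The cell death genes were not spread evenly over the rule. In root cap nuclei with exactly 3 markers they summed to 461, 140, 166 and 450 CPM, and in those with 5 or more to 170, 119, 181 and 171 CPM. Control 1 and stress 2 were more than 2 times higher at 3 markers, and the other libraries were not. The 5 dividing-cell markers went the other way in 3 libraries, with 180, 55.1, 95.3 and 57.3 CPM at 3 markers and 172, 222, 261 and 166 CPM at 5 or more. Non-hair epidermis (atrichoblast) markers were higher at 3 markers in every library, with 729, 640, 576 and 782 CPM against 494, 376, 473 and 440 at 5 or more. The nuclei of a library share their source, and these sums carry no test.

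Cell separation genes were higher in all 4 libraries in 3 of 6 cases, beside 10.3% of all genes with a count. RCPG, the root cap polygalacturonase that loosens pectin, stood at 140, 19.9, 65.4 and 48.5 CPM against 0.479 to 2.03 outside. The cellulase gene CEL3 followed the same order of libraries, at 29.9, 1.33, 22.6 and 14.9 CPM against at most 1.18. Control 1 was highest and control 2 lowest for both, with 117 and 15 counts of RCPG behind those values. HSL2 stood at 5.45 to 10.8 CPM, and its relative HAE, a receptor kinase gene of organ shedding, had 0 counts in all 4 libraries of root cap nuclei, which allows up to 3.58, 3.98, 2.34 and 2.8 CPM.

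Among regulators, FEZ stood at 7.17, 6.63, 6.23 and 11.2 CPM against 0.897 to 1.5, and ARF16, an auxin response factor needed for columella formation, at 28.7, 29.2, 28.0 and 28.0 CPM against 10.1 to 16.4. ARF16 was nearly constant over the libraries. WER and ARF10 were also higher in all 4, and NLP7 was lower in all 4, at 13.3 to 42.0 CPM against 19.4 to 46.1. Of 10 gravity genes 5 were higher in all 4 libraries, beside 10.3% of all genes with a count. LZY4, a relative of the LAZY proteins that turn gravity sensing into auxin flow, stood at 27.5, 26.5, 38.2 and 36.4 CPM against 0.897 to 2.61. The auxin efflux carrier PIN2 stood at 199, 164, 156 and 176 CPM against 63.0 to 88.2, and the influx carrier AUX1 at 124, 134, 93.5 and 97.0 CPM against 38.1 to 61.1.

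**Figure D3:**
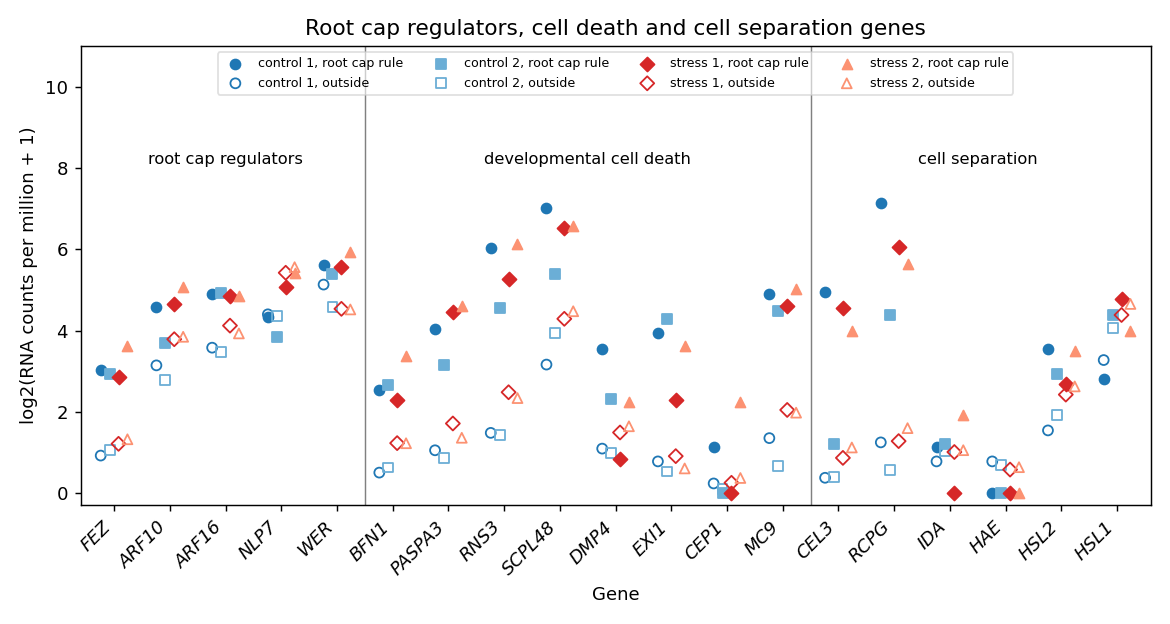
RNA of all genes of 3 lists, as log2(CPM + 1), in each library, filled symbols for root cap nuclei and open symbols for nuclei outside the rule. RNS3, PASPA3, MC9, RCPG and FEZ have every filled symbol above every open one, and NLP7 has its filled symbols below the open symbol of the same library.

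Columella genes from the study's marker list were higher in all 4 libraries in 19 of 29 cases, with sums of 675, 623, 553 and 580 CPM against 319 to 362 outside. Starch genes were higher in 6 of 10, with ADG1, the small subunit of ADP-glucose pyrophosphorylase, at 31.1, 29.2, 25.7 and 35.4 CPM against 8.42 to 13.8. Lateral root cap genes were higher in 3 of 6, among them PASPA3 and BFN1, which the cell death list also holds. Cuticle genes were higher in 1 of 8. Over all genes with a count 10.3% were higher in all 4 libraries and 20.9% lower. Columella, starch and lateral root cap genes were thus higher more often than all genes, and cuticle genes stood near that share. All genes with a count include genes of any level, and they were not matched in level to a list. Markers of other classes were also present: trichoblast markers were lower in all 4 libraries in 10 of 15 cases, cortex markers in 7 of 14 and stele and pericycle markers in 5 of 9. Atrichoblast markers were higher in 7 of 10, so higher RNA was not confined to lists of the cap.

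Gene-start accessibility, the peak counts within 500 bases of a gene's start, was compared between root cap nuclei and nuclei outside the rule in 17310 genes with such a peak in all 4 libraries and no part in the rule. With edgeR's quasi-likelihood test and Benjamini-Hochberg adjustment 40 genes were higher (0.231%) and 70 lower (0.404%), or 110 in all (0.635%). Peaks were called in each library alone, over all its nuclei, and only 2 of the 11 markers had a start peak in all 4. SMB, BRN1, BRN2, CEL5 and AT5G60520 had no such peak in any library.

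At the start of AT5G10130 the root cap nuclei had 90.4, 67.3, 50.6 and 64.1 peak CPM against 49.2, 48.1, 43.8 and 45.6 outside. They were higher in every library, with a log2 difference of 0.50 ± 0.16 (SE) that did not pass the test (adjusted p = 0.132). AT1G50060, of the CAP family of secreted proteins, had 20.3, 33.7, 34.7 and 32.1 peak CPM against 22.0, 17.4, 19.3 and 19.6, higher in 3 of 4 libraries (0.65 ± 0.25, adjusted p = 0.251). AT5G60530 had a start peak in 3 libraries, where the root cap nuclei had 36.9, 42.7 and 42.8 peak CPM in control 2, stress 1 and stress 2 against 19.3, 15.8 and 15.0.

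Of the 5 genes named for a more accessible start, 4 had at most 1 RNA count in all root cap nuclei. MAKR1, of the membrane-associated kinase regulators, had 66.4, 28.9, 27.8 and 53.4 peak CPM against 18.1, 13.1, 13.7 and 15.5 (log2 difference 1.47 ± 0.24, adjusted p = 0.000233). Its RNA was also higher in every library, at 50.2, 7.96, 28.0 and 35.4 CPM against 9.86, 5.20, 7.33 and 6.96. AT5G05965, annotated as a cell wall protein of the RBR3-like kind, had 75.6, 32.1, 30.8 and 28.1 peak CPM against 18.6, 13.3, 11.7 and 12.4 (1.48 ± 0.25, adjusted p = 0.000244). Both genes passed under all 12 alternatives tried.

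The overlapping non-coding loci AT1G07863 and AT1G07857 on chromosome 1 share their start peaks and hence 1 set of values, 35.0, 68.9, 26.8 and 36.1 peak CPM against 13.0 to 14.7 (1.51 ± 0.25, adjusted p = 0.000233, but 0.124 without control 2). AT1G20180, a DUF677 gene with no RNA count in root cap nuclei, had 31.4, 49.7, 37.7 and 22.7 peak CPM against 12.7 to 16.7 (1.19 ± 0.26, adjusted p = 0.00779). Among the less accessible starts, the ethylene response factor gene AT5G07580 had 20.3, 6.41, 29.8 and 26.7 peak CPM against 44.7 to 51.6 (-1.19 ± 0.22, adjusted p = 0.00132). AT4G14380 (-1.10 ± 0.21), AT5G06490 (-1.10 ± 0.24), KCS13 (-1.08 ± 0.25) and AT4G04630 (-1.15 ± 0.29) were the other 4 of the largest 5. Their adjusted p ran from 0.00223 to 0.035. AT4G04630 had 0 counts in control 1, which allows up to 5.53 peak CPM. With 1 library left out, adjusted p reached 0.294 for AT1G20180 and 0.156 for AT5G07580. AT4G14380 kept the call in 2 of these 4 fits and AT5G06490 in 1. KCS13 and AT4G04630 lost the call whichever library was left out.

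**Figure D4:**
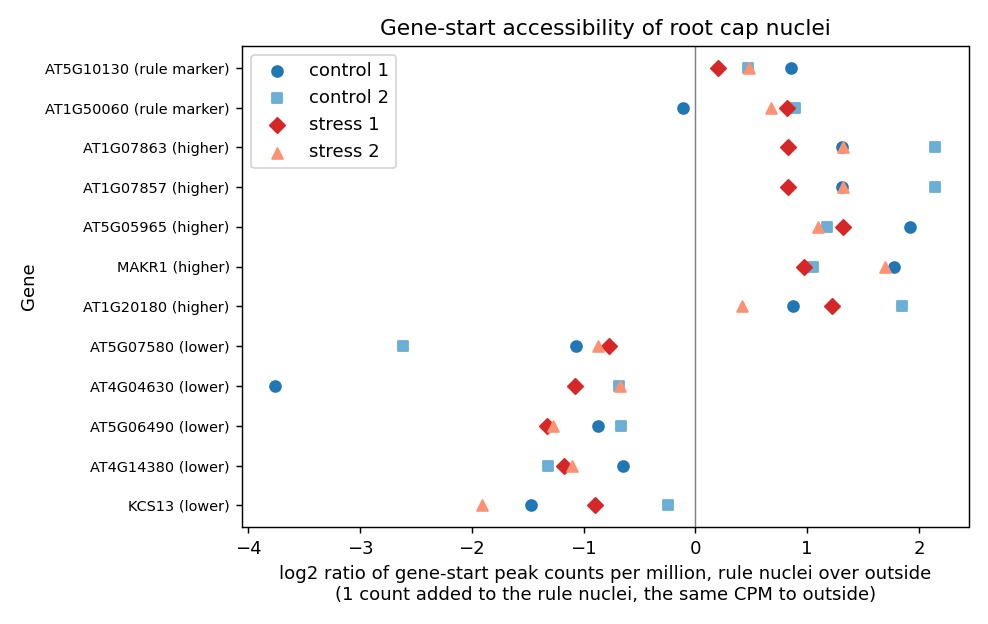
Log2 ratio of gene-start peak CPM, root cap nuclei over nuclei outside the rule, for each library, with 1 count added to the root cap nuclei and the same CPM to the others. MAKR1 and AT5G05965 lie right of 0 in all 4 libraries, and the marker AT1G50060 lies left of 0 in control 1.

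Genes higher in RNA had more accessible starts more often than the background. Of the 84 described genes 26 had a start peak in all 4 libraries, and 12 of these (46.2%) were higher in accessibility in every library, against 8.68% of the 17312 genes measured (9.47% were lower in every library), with a median log2 difference of 0.31 against 0.0054 over all tested. The test called 2 of them higher, UXS6 and AT1G52910, and 0 lower. The PASPA3 start had 36.9, 35.3, 20.8 and 14.7 peak CPM against 12.9 to 14.1, so the control libraries were higher than the stress libraries there (root cap against outside 0.92 ± 0.28, adjusted p = 0.117). No gene of the cell death, cell separation, columella, starch, gravity or regulator lists passed. The number of calls over all genes depended on single libraries: 2 genes passed without control 2, 14 without stress 2, 52 without stress 1 and 103 without control 1.

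Under osmotic stress, 341 of 12166 genes rose in the root cap nuclei (2.8%) and 289 fell (2.38%), 630 in all (5.18%), in edgeR's quasi-likelihood test on the 4 library sums with adjusted p under 0.05. In these bulk sums a change in the mix of cells and a change of RNA per cell cannot be told apart. Most of the 630 genes were also called outside the rule: 374 passed there in the same direction. In that test 1441 of 20510 genes rose and 641 fell. The sign outside was the same for 621 of the 630, and the share of same signs over all genes was not counted. The number called in the root cap nuclei depended on which library was left out. A fit without 1 library takes its spread from the other group alone. Markers of some other classes were higher in both stress libraries. In root cap nuclei cortex markers summed to 106, 138, 344 and 324 CPM and stele and pericycle markers to 125, 308, 584 and 765. Xylem markers summed to 17.9, 39.8, 91.1 and 82.1. Outside the rule these sums were also higher in stress. They were 190, 279, 459 and 471 CPM for cortex and 205, 415, 701 and 721 for stele and pericycle. For xylem they were 52.1, 38.7, 83.1 and 88.2. In root cap nuclei stem cell niche markers were lower in stress (192, 215, 160 and 172 CPM). Atrichoblast (614, 504, 481 and 529) and dividing-cell markers (186, 127, 178 and 133) overlapped there. In the nuclei that remained without those holding at least 3 markers of another class, 40 genes of 6032 passed, 27 higher and 13 lower.

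The largest rise was that of CLE5 (AT2G31083, chr2:13252076-13252914), a gene of a small secreted CLE signalling peptide. CLE5 stood at 1.19 and 6.63 CPM in control (1 and 5 counts) and at 67.0 and 79.3 CPM in stress (86 and 85 counts). The log2 change was 4.09 ± 0.45 (SE, adjusted p = 0.00482, n = 2 libraries a group), and it passed in 11 of 12 alternatives. Nuclei outside the rule rose from 9.86 and 10.7 CPM to 60.7 and 50.7 CPM, so the control level within the cap was the lower one. AT2G05510, a glycine-rich protein gene, went from 2.39 and 6.63 to 95.8 and 69.9 CPM (4.07 ± 0.41, adjusted p = 0.00278). Outside the rule AT2G05510 went from 7.11 and 5.00 to 79.7 and 76.4 CPM. Its relative GRP9 went from 27.5 and 78.3 to 476 and 490.5 CPM (3.08 ± 0.34, adjusted p = 0.00482).

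The amino acid exporter gene UMAMIT14 went from 1.19 and 3.98 to 27.3 and 57.8 CPM (3.86 ± 0.66, adjusted p = 0.0151, but 0.0569 without stress 2). GDU4, of the GLUTAMINE DUMPER family whose members increase amino acid export, went from 4.78 and 2.65 to 52.2 and 41.0 CPM (3.46 ± 0.43, adjusted p = 0.00643). Outside the rule GDU4 went from 7.59 and 4.83 to 59.1 and 60.8 CPM. AT5G18840, a major facilitator gene that the cortex marker list also holds, went from 2.39 and 5.31 to 47.5 and 30.8 CPM (3.21 ± 0.49, adjusted p = 0.0102). AT2G38640 (3.28 ± 0.51), the photosystem I antenna gene LHCA3 (3.19 ± 0.46), the phosphate starvation gene AT5G03545 (3.14 ± 0.42) and the lipid-transfer-like gene AT4G33550 (3.13 ± 0.42) were the others of the largest 10, with adjusted p from 0.0075 to 0.0106. In each of these genes both stress libraries lay above both controls, which the naming rule required. The size of most rises depended on which control was used. CLE5 ran from 3.31 to 5.63 and AT2G38640 from 2.40 to 5.38 when 1 library was left out, in each case lowest without control 1 and highest without control 2. AT2G05510 (3.52 to 4.89), UMAMIT14 (3.22 to 4.82), AT5G18840 (2.76 to 3.82), LHCA3 (2.72 to 3.78), AT5G03545 (2.61 to 3.90) and GRP9 (2.50 to 3.95) had the same order, and AT4G33550 (2.59 to 4.04) the opposite one.

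The largest fall was that of AT1G07400, a small heat-shock protein gene, which stood at 299.8 and 14.6 CPM in control and 5.45 and 3.73 in stress (-5.21 ± 1.20, adjusted p = 0.0435). Control 1 set its size: without it the change was -1.74 (adjusted p = 0.151). The beta-glucosidase gene DIN2 went from 84.8 and 18.6 to 2.34 and 1.86 CPM (-4.69 ± 0.85, adjusted p = 0.0187), while nuclei outside the rule stood at 3.41 and 16.5 in control, so the high value belonged to the root cap nuclei of control 1, without which the change was -3.18 (adjusted p = 0.00632). The defence regulator gene WRKY38 went from 32.3 and 57.0 to 3.12 and 1.86 CPM (-4.19 ± 0.49, adjusted p = 0.00618).

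AT1G13480, a DUF1262 gene, went from 58.5 and 54.4 to 6.23 and 4.66 CPM (-3.46 ± 0.33, adjusted p = 0.00222), with 2.35 to 9.93 CPM outside the rule. AT5G44585, an uncharacterized gene, went from 290.3 and 298 to 45.2 and 49.4 CPM (-2.77 ± 0.19, adjusted p = 0.00157), the smallest SE of the 20 named genes. AT2G17880, a DnaJ-domain gene, went from 70.5 and 98.1 to 10.1 and 13.1 CPM (-2.99 ± 0.29), and the berberine-type oxidase gene AT1G30730 from 154 and 224 to 31.2 and 33.6 CPM (-2.67 ± 0.25), both at adjusted p = 0.00222. The controls of these 4 genes lay closer together than those of DIN2 and AT1G07400. The endoplasmic reticulum co-chaperone gene ATERDJ3A (-2.75 ± 0.43), AT1G69890 (-2.61 ± 0.57) and the FKBP-type isomerase gene AT5G48570 (-2.56 ± 0.57) were the other 3, with adjusted p from 0.011 to 0.0382. AT5G48570 had 322.5 and 75.6 CPM in control, its change was -1.12 without control 1 (adjusted p = 0.000521), and it passed in 8 of 14 alternatives. AT1G69890 had 19.1 and 63.7 CPM in control, its change was -1.57 without control 2 (adjusted p = 0.0454), and it passed in 10 of 12.

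**Figure D5:**
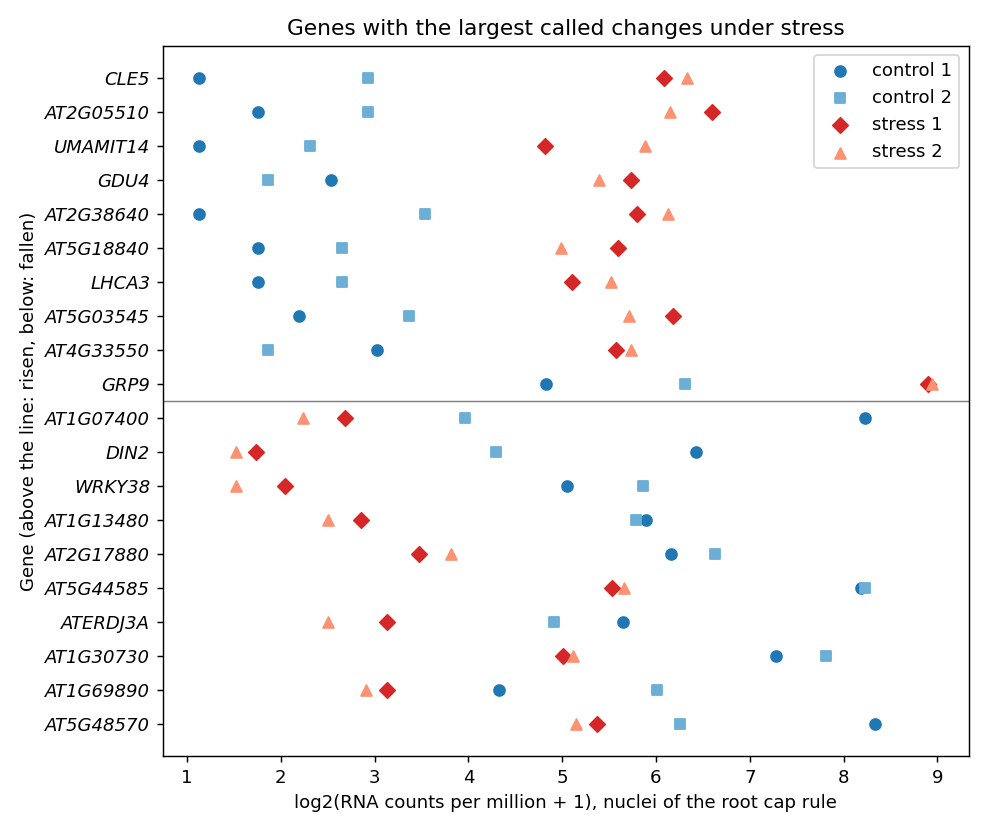
RNA in root cap nuclei of the 20 named genes, 10 that rose and 10 that fell under stress, as log2(CPM + 1) in each library. Both stress libraries lie on one side of both controls in every row, as the naming rule required, and control 1 stands far above control 2 for AT1G07400 (299.8 against 14.6 CPM).

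Of the 84 genes higher in root cap nuclei, 0 rose and 10 fell, beside 2.8% that rose and 2.38% that fell over all genes tested, with a median log2 change of -0.38 against -0.0074 over all genes tested. The arabinogalactan protein gene AGP30 went from 1018 and 568 to 285 and 400.0 CPM (-1.36 ± 0.28, adjusted p = 0.0302) and the LEA-like gene AT1G54890 from 284 and 349 to 139 and 131 CPM (-1.35 ± 0.17, adjusted p = 0.0075). Both lost the call when 1 library was left out, with adjusted p up to 0.0583 and 0.055. Outside the rule AGP30 went from 116 and 71.9 to 83.4 and 87.8 CPM. AT1G54890 went from 137 and 118 to 54.2 and 56.2 CPM there, so its fall was not confined to root cap nuclei. The summed level of the 11 markers in root cap nuclei was 8609, 4165, 4470 and 4346 CPM, highest in control 1.

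Of the 8 cell death genes 5 could be tested and 0 passed, with a median change of -0.014. RNS3 changed by 0.11 ± 0.45, SCPL48 by -0.04 ± 0.42 and MC9 by -0.01 ± 0.32, so changes of the size of these errors were not detectable. None of 3 cell separation genes, 7 starch genes, 6 gravity genes or 4 regulator genes tested passed. Over all genes 5.18% passed, a share at which lists this short often hold none. NLP7, a regulator of the nitrate response, had 19.1 and 13.3 CPM in control and 32.7 and 42.0 in stress (1.04 ± 0.33, adjusted p = 0.106). Which genes of these lists passed depended on which control was left out, and such fits hold a single control library.

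Among 12 columella genes tested of 29, 2 fell, beside 2.38% of all genes tested. RGF3, the gene of a root meristem growth factor peptide, went from 77.6 and 58.4 to 21.8 and 26.1 CPM (-1.65 ± 0.27, adjusted p = 0.013, but 0.0722 without stress 1), while nuclei outside the rule stayed between 9.38 and 11.9 CPM. The ethylene-forming oxidase gene EFE went from 29.9 and 22.5 to 9.35 and 9.32 CPM (-1.62 ± 0.37, adjusted p = 0.0399). One lateral root cap gene of 4 tested fell, SCPL18, from 26.3 and 13.3 to 1.56 and 5.59 CPM (-2.65 ± 0.62, adjusted p = 0.0454). EFE and SCPL18 each lost the call without 1 of the libraries, with adjusted p up to 0.207 and 0.234.

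Most genes of water channels rose in the root cap nuclei. Of 15 aquaporin genes 10 rose and 1 fell, beside 2.8% and 2.38% of all genes tested, while 4 did not pass, and the median change was 1.07, with 7 to 12 that rose under the alternatives. PIP2;1 went from 575 and 707 to 2079 and 1885 CPM (1.5 ± 0.14, adjusted p = 0.00222), TIP2;3 from 161 and 170.0 to 673 and 603 CPM (1.81 ± 0.15, adjusted p = 0.00173), and TIP2;1 fell from 301 and 322 to 164 and 174 CPM (-1.01 ± 0.16, adjusted p = 0.0113, but up to 0.165 with 1 library left out). Aquaporin RNA was lower in the root cap nuclei than outside in all 4 libraries for 14 of the 15. Of all genes with a count 20.9% were lower. Aquaporin RNA rose in both sets of nuclei: the 15 genes summed to 6270, 7545, 15311 and 14497 CPM in root cap nuclei. Outside the rule they summed to 8947, 9859, 17718 and 18179 CPM.

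Of 26 abscisic acid and osmotic stress genes 15 were tested, and 1 rose and 1 fell, beside 5.18% of all genes that passed in either direction. With no filter on low counts 4 of 24 rose and 1 fell, beside 761 and 861 of 21404 genes. The kinase gene SNRK2.8 went from 4.78 and 7.96 to 40.5 and 39.2 CPM (2.51 ± 0.37, adjusted p = 0.00868), and DREB2A, a dehydration response factor gene, from 53.8 and 74.3 to 19.5 and 28.0 CPM (-1.57 ± 0.28, adjusted p = 0.0188, but 0.144 without stress 1). Of 16 jasmonate genes 11 were tested and 0 passed, with a median of -1.20 and all 11 below 0. Over all genes tested 6141 of 12166 were below 0. Control 2 stood apart there: the list summed to 765, 2361, 790 and 703 CPM in root cap nuclei and to 998, 3658, 1097 and 1199 CPM outside, and JAZ10 had 31.1, 203, 28.0 and 14.9 CPM. With no filter on low counts and all 4 libraries 10 of 15 jasmonate genes passed as lower, beside 861 of 21404 genes. A fit without control 1 holds control 2 as its only control, the library with the high jasmonate values. Of the 12 genes of histone H3K4 methylation that the study chose on these libraries, 8 were tested and 0 passed (median 0.0089).

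The change under stress was then compared between root cap nuclei and nuclei outside the rule by an interaction term over 8 sums, with library as a term. Of 18638 genes 53 passed (0.284%), 12 with a change more positive in root cap nuclei (0.0644%) and 41 with a change more negative (0.22%). CYP702A5, a cytochrome P450 gene, stood at 31.1, 23.9, 42.8 and 48.5 CPM in root cap nuclei and at 2.87, 4.21, 45.5 and 46.1 outside. The nuclei outside stood far below the root cap nuclei in control and at like levels in stress (interaction -2.94 ± 0.35, adjusted p = 9.15e-06), and this passed under all 14 alternatives. MRN1, the marneral synthase gene of triterpene synthesis, stood at 33.4, 14.6, 70.1 and 85.8 CPM against 4.48, 2.70, 61.2 and 64.7, higher in stress in both sets of nuclei (interaction -2.40 ± 0.33, adjusted p = 0.000104, but 0.0639 without control 1).

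Other differences turned on control 1. The glutathione transferase gene GSTF7 stood at 116, 13.3, 8.57 and 14.9 CPM against 15.0, 6.13, 16.6 and 15.5 (-2.95 ± 0.40, adjusted p = 0.000104), and the indole glucosinolate methyltransferase gene IGMT4 at 65.7, 9.28, 6.23 and 2.8 CPM against 4.21 to 8.78 (-3.31 ± 0.53, adjusted p = 0.000427). Only the root cap nuclei of control 1 were high in both, and without that library the adjusted p was 0.41 and 0.425. AT5G62420, an oxidoreductase gene, stood at 26.3, 11.9, 19.5 and 22.4 CPM against 5.14, 4.79, 26.8 and 31.3 (-2.39 ± 0.41, adjusted p = 0.00114, but 0.315 without control 1).

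Of the changes more positive in root cap nuclei, that of AT3G01190, a peroxidase gene, passed with each library left out. It stood at 189, 200.3, 333 and 352 CPM in root cap nuclei and at 459.9, 349, 349 and 361 CPM outside (1.02 ± 0.16, adjusted p = 0.000427). SQP2, a squalene monooxygenase gene (1.77 ± 0.33), CYP79B3, which acts in indole glucosinolate synthesis (1.65 ± 0.38), AT2G28790 (1.56 ± 0.35) and AT4G35380 (1.23 ± 0.28) were the other 4 of the largest 5, with adjusted p from 0.00407 to 0.0437, and each lost the call without at least 1 library. None of 15 aquaporins passed, with a median interaction of 0.20 and all 15 above 0. None of 7 cell death genes passed, with a median of -1.10 and all 7 below 0. Also below 0 were 10 of the 11 markers, 16 of 19 columella genes and all 4 cell separation genes, so this sign was not particular to cell death. Outside the rule the cell death sum was 14.8 and 19.5 CPM in control and 32.7 and 34.1 in stress. In root cap nuclei it was 269 and 121 CPM in control and 181 and 245 in stress. Over all 18638 genes the median was 0.0461 and 54.7% were above 0. No list was tested as a set.

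Gene-start accessibility of the root cap nuclei was tested for stress in 17167 genes and 0 passed (0.0%), with 960 at an unadjusted p under 0.05 in edgeR and 268 in DESeq2, which also called 0. The peak sums were 542256 to 1007362 counts a library, and what limited the number of calls was not tested. Of the 341 genes that rose in RNA 170 were measured at their start, and 64.1% had a positive accessibility change, with a median of 0.14. Of the 289 that fell 175 were measured, with 46.9% positive and a median of -0.036, beside 50.6% and 0.0078 over all genes tested.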

How the data were processed

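RNA and chromatin were measured in the same nuclei of 4 root tip libraries (2 control, 2 osmotic stress). Per the submitters' processing notes and the study's methods, the authors ran Cell Ranger ARC 2.0.2 on each library against TAIR10 and used Seurat 4.3.0. The deposited matrices hold whole, unnormalised counts per gene and per peak and nucleus, with peaks called in each library alone, so only genes with a start peak in all 4 could be compared. No doublet caller was run, and markers of other classes were counted instead.

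Nuclei with RNA counts over 1000 and under 25000 were kept. Counts were summed over the root cap nuclei, and over the others of each library, because libraries and not nuclei are the replicates. These sums entered edgeR 4.0.16 in R 4.3.3 (quasi-likelihood, TMM, filterByExpr, Benjamini-Hochberg over all genes tested, adjusted p under 0.05). CPM divide by the summed counts and are not scaled to gene length, so levels were compared within a gene only. The SE is the absolute log2 change divided by the root of the F statistic. The 11 marker genes stayed in the fits and out of all counts of calls. Peaks wider than 20 and narrower than 10000 bases within 500 bases of a gene's start were summed. The gene start in the files and in the TAIR10.1 annotation stood at the same base in 32540 of 32548 genes. Python 3.11.15 with numpy 2.4.6, pandas 2.3.3, scipy 1.17.1 and matplotlib 3.10.9 did the rest, and the scripts were tested on simulated data.

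Named genes were the 10 largest rises and 10 largest falls (adjusted p under 0.05, mean of at least 20 CPM, both stress libraries on one side of both controls), 5 each way for the interaction and for accessibility, all markers with a start peak, and the 15 genes with the largest RNA ratio. Genes of the lists that passed are also named, as are members of lists chosen after their values were seen (RNS3, NLP7, ARF16, LZY4, PIN2, AUX1, ADG1, PASPA3, UXS6 and AT1G52910 among them). The root cap members and the gene lists were chosen with earlier results of these data known.

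Alternatives were RLE size factors, DESeq2 1.42.0, no filter on low counts, other marker limits (2, 4 or 0.2%), limits on peak counts, thinning to 1000 counts, equal numbers of nuclei, a replicate block, a 1000-base window and leaving out each library.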

Additional observations from a re-analysis of the deposited data

Results flagged for a closer look

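The change under stress differed between the root cap nuclei and the nuclei outside the rule in 10 named genes, each by the edgeR interaction term over 8 library sums. It was more positive in root cap nuclei for SQP2 (1.77 on the log2 scale), CYP79B3 (1.65), AT2G28790 (1.56), AT4G35380 (1.23) and AT3G01190 (1.02). It was more negative for IGMT4 (-3.31), GSTF7 (-2.95), CYP702A5 (-2.94), MRN1 (-2.40) and AT5G62420 (-2.39). CYP702A5 and AT3G01190 kept the call whichever library was left out, and the other 8 did not. Control 1 was the only library whose removal ended the call of IGMT4, GSTF7, MRN1 and AT5G62420.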

How the results depend on the processing

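The difference in the share of root cap nuclei, -0.19 percentage points, was -0.62 with at least 2 markers and -1.78 with limits on peak counts, turned to 0.131 with at least 4 markers and ran from -1.20 to 0.82 when 1 library was left out, with 0.82 without control 1. It was -0.49, with groups that did not overlap, without nuclei holding at least 3 markers of another class, an alternative chosen after seeing the data for the share.

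The number of genes called under stress in RNA, 630, was 636 with RLE size factors and 849 with at least 2 markers. It moved to 1622 with no filter on low counts, 267 with DESeq2, 314 with at least 4 markers, 180 at 0.2% of counts, 264 with limits on peak counts, 293 with equal numbers of nuclei and 40 without nuclei holding markers of another class, and it ran from 185 to 2425 when 1 library was left out. The number for the interaction, 53, moved to 99 with no filter, 17 with DESeq2, 89 at 0.2% of counts, 19 with limits on peak counts, 11 with equal numbers of nuclei and 24 without nuclei holding markers of another class, with 16 to 381 when 1 library was left out. That for accessibility against nuclei outside the rule, 110, moved to 190 with 2 markers and 56 with 4, with 2 to 103 when 1 library was left out. That for accessibility under stress, 0, moved to 22 with 2 markers and 14 with limits on peak counts, with 0 to 172 when 1 library was left out. The causes were not tested. Alternatives that keep fewer nuclei also test fewer genes.

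With the replicate number as a block, 487 genes were called under stress, 142 for the interaction and 0 for accessibility. The numbers are only names in the labels: deviations from the group means of same-numbered libraries correlated at -0.0513 over 8266 genes.

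No gene named for passing a test changed direction under the alternatives. Of the 84 genes higher in root cap nuclei, which were not chosen by the stress test, 33 turned in sign for stress when 1 library was left out, and 0 of these had passed. Genes followed through the alternatives kept their side of the threshold in 420 checks and lost the call in 66 for stress, in 97 and 43 for the interaction, and in 119 and 25 for accessibility. With 2 libraries a group, depth and replicate spread limit every value above: the median absolute log2 difference between replicates in root cap nuclei was 0.316 in control and 0.171 in stress.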
